A study of Mus musculus with 4 samples.

Results

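The 9 genes described here belong to the vascular endothelial growth factor (VEGF) system and were followed through the cells of mouse glomeruli: the ligands Vegfa, Vegfb and Vegfc, the receptors Kdr (VEGFR2), Flt1 (VEGFR1) and Flt4 (VEGFR3), the co-receptors Nrp1 and Nrp2, and Esm1, which encodes the secreted proteoglycan endocan. They were taken by symbol from the gene list shared by all libraries, where all 9 were found among 52636 genes. Glomeruli, the filtering tufts of the kidney, had been isolated from untreated mice by perfusing magnetic beads into the vessels, dissociated with enzymes, and profiled as single cells with 10x Genomics 3′ chemistry. The 4 libraries fall into 2 groups: 2 from young mice and 2 from aged mice. The labels give no age in months, no sex, no strain, and no number of mice behind a library, so the p-values below measure only the spread between libraries, which may be technical.

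VEGF-A is made by podocytes, the epithelial cells that wrap the glomerular capillaries, and crosses the basement membrane to reach VEGFR2 on the endothelium, where signalling maintains the fenestrated capillary wall. VEGFR1 binds VEGF-A tightly but signals weakly and also exists as a secreted decoy, and VEGFR3 is best known as the VEGF-C receptor of lymphatic vessels. Neuropilins hold VEGF at the cell surface beside its receptors and also bind semaphorins, and Esm1 is a gene that endothelial cells switch on in response to VEGF.

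In the mouse genome (GRCm38), Vegfa lies on chromosome 17 (46016993 to 46032369, minus strand), Vegfb on chromosome 19 (6982473 to 6987651, minus) and Vegfc on chromosome 8 (54077606 to 54187096, plus). Kdr and Flt1 both lie on chromosome 5, at 75932827 to 75978458 and 147561604 to 147726011, both on the minus strand. Flt4 is on chromosome 11 (49609263 to 49652739, plus), Nrp1 on chromosome 8 (128358604 to 128503363, plus), Nrp2 on chromosome 1 (62703285 to 62818695, plus) and Esm1 on chromosome 13 (113209659 to 113218098, plus). Nrp1 was the only member with an exon overlapped by an exon of another annotated gene on the same strand, the microRNA gene Mir1903. Counts from the 3′ end of transcripts do not separate isoforms, so soluble and membrane-bound Flt1, or the splice forms of Vegfa, are each counted as 1 gene, and levels are compared within a gene and not between genes.

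Upstream sequences are shown for the podocyte ligand, the main endothelial receptors and Esm1, whose age difference had opposite signs in 2 sets of endothelial cells. They are from RefSeq (GRCm38.p6), run 5′ to 3′ on the gene's strand and end before the transcript start: Vegfa chr17:46032378-46032627 (minus), Kdr chr5:75978459-75978705 (minus), Flt1 chr5:147726012-147726261 (minus) and Esm1 chr13:113209409-113209658 (plus). Capitals mark the letters GGAA or, on the other strand, TTCC, the core bound by ETS factors, a family that includes endothelial regulators.
Vegfa: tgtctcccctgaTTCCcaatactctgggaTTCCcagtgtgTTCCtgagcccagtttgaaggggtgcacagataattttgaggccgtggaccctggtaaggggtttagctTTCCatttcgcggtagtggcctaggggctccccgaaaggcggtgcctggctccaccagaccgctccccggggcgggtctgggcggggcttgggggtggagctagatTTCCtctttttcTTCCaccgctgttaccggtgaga
Kdr: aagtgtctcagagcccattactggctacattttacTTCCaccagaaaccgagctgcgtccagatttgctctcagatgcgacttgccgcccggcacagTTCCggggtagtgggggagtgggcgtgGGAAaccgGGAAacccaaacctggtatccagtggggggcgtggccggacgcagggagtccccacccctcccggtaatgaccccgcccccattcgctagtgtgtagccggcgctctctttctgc
Flt1: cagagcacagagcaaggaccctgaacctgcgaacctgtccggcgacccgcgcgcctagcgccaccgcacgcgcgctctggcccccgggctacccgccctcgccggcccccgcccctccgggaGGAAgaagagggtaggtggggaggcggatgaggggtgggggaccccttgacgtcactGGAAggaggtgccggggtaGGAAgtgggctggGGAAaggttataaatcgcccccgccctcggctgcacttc
Esm1: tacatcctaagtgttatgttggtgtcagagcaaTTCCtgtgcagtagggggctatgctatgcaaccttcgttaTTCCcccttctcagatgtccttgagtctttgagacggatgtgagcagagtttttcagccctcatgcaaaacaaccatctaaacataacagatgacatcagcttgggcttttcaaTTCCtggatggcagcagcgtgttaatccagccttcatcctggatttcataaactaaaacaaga
The core occurs 6 times in the Vegfa window, 4 times in those of Kdr and Flt1, and 3 times in that of Esm1. Of 32851 promoters in the same RefSeq set, 93.4% held at least 1 such core and 18.0% held 5 or more. The GC box GGGCGG (either strand) was found 2 times upstream of Vegfa, 2 times upstream of Kdr, 3 times upstream of Flt1 and 0 times upstream of Esm1, against at least 1 match in 32.7% of promoters. The hypoxia core ACGTG (either strand) was in none of these 4 windows and in 16.6% of promoters. These matches describe letters only.

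The libraries held 33323 cell barcodes and 124600182 unique molecular identifiers (UMIs), between 18457791 and 42046542 per library, and 28000 cells were kept after filters and doublet removal. Pairs of libraries shared 9 to 31 barcodes. The second young library stands apart: the median of its kept cells was 1258 UMIs against 2715 to 3730 in the others, and 64.8% of its kept cells were given no class against 4.62% to 7.22%. In that library 45.8% of kept cells lay in clusters that carried the markers of 2 classes, which were left out, so results are also given without it where it decides them. Cells were clustered without the 9 members among the variable genes and named from marker lists, giving 3968 podocytes, 14094 endothelial cells and 1711 mesangial cells. Single cells of named clusters that carried another class's markers were also left out, 151 and 582 in young and 132 and 52 in aged libraries. This step limits the level of other classes' markers in the sums below. The cluster with the highest level of the parietal epithelial list, cluster 17, had none of those markers among its leading genes, which were Pcp4, Gpx3 and Spp1, so it is called by its number and holds 225 cells. Levels are counts per 1000000 UMIs of a class in a library (CPM), given in the order young 1, young 2, aged 1, aged 2, and in bulk sums of this kind a change of level and a change of the mix of cells within a class cannot be told apart.

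Vegfa marked the podocyte as the ligand source and Kdr and Flt1 marked the endothelium as the receptor-bearing layer. Podocyte sums held Vegfa at 1831, 2184, 1931 and 1814 CPM, and endothelial sums at 168, 196, 141 and 144. Every podocyte library lay above every endothelial library. In podocytes 98.2% to 99.5% of cells had a Vegfa UMI, against 27.7% to 36.4% of endothelial cells and 7.41% to 16.8% of mesangial cells, at median depths of 4200 to 7673, 2317 to 3228 and 3783 to 7289 UMIs. With every cell thinned to 1000 UMIs the shares were 79.1% to 86.7%, 12.5% to 16.6% and 0.876% to 3.76%. The podocyte to endothelial difference was 3.51 ± 0.10 on the log2 scale (SE, 11.4-fold, edgeR quasi-likelihood test with library as a block, Benjamini-Hochberg adjusted p = 5.94e-10).

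**Figure D1:**
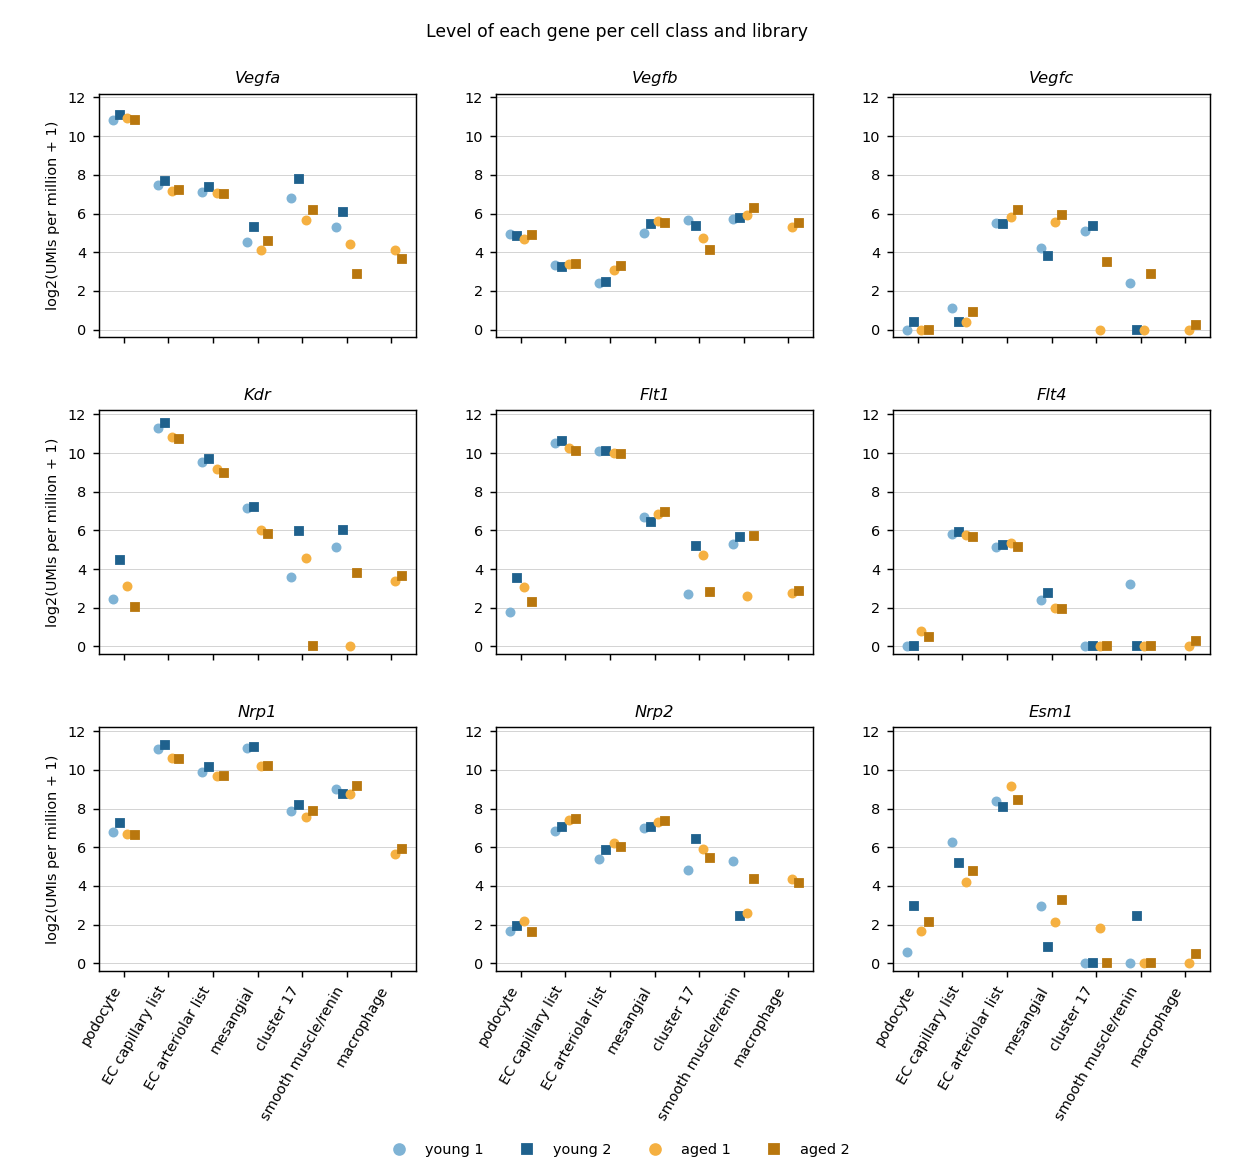
Level of each member (CPM of the class, log axis) in the glomerular classes, 1 point per library, young and aged libraries in different colours. Vegfa is highest in podocytes, Kdr, Flt1, Flt4 and Esm1 in endothelial cells, and Nrp1 and Nrp2 lie at a like level in endothelial and mesangial cells.

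All 9 members differed between podocytes and endothelial cells in that test, where 78.9% of 12178 genes did, so the count itself sets the members apart from few other genes. Vegfb, a ligand of VEGFR1, was the other member that was higher in podocytes, at 29.2, 27.97, 24.9 and 28.2 CPM against 8.02, 7.59, 9.11 and 9.27 in endothelial cells (log2 difference 1.57 ± 0.13, SE, edgeR adjusted p = 1.7e-06). Vegfb was not particular to podocytes. It stood at 31.1, 42.6, 47.2 and 44.3 in mesangial cells and at 50.8, 54.2, 60.7 and 77.0 in the smooth muscle and renin class, whose sums hold only 12 Vegfb UMIs in each library. In the aged libraries, which hold 565 and 502 macrophages, macrophage sums gave 38.7 and 45.1.

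Receptor UMIs were scarce in podocytes. Kdr stood at 4.55, 21.1, 7.87 and 3.05 CPM in podocytes and at 2124, 2503, 1545 and 1477 in endothelial cells, a log2 difference of -8.01 ± 0.32 (SE, edgeR adjusted p = 6.66e-09). Flt1 stood at 2.47, 10.6, 7.51 and 3.86 in podocytes and at 1375, 1474, 1182 and 1088 in endothelial cells (-7.93 ± 0.27, adjusted p = 2.21e-09 in the same edgeR test). For both receptors the podocyte level was highest in the second young library. Podocyte sums held Kdr at 0.206% to 0.844% and Flt1 at 0.180% to 0.717% of the endothelial level, and the endothelial markers Pecam1 and Cdh5 at 0.301% to 0.907% and 0.300% to 0.819%. The whole list of 10 endothelial markers summed to 1329 to 1765 CPM in podocyte sums, 12.1% to 16.1% of its own level, with 0 of 10 at 0. Cldn5 alone gave 1269 to 1728 CPM of that and was at 984% to 1603% of its endothelial level. The part of endothelial RNA in the receptor values was not tested. Flt4 gave 0, 0, 4 and 2 UMIs in podocyte sums, and Vegfc gave 0, 1, 0 and 0, so no fold is stated for them.

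Vegfa UMIs in endothelial cells did not stand in the ratio of the podocyte markers Nphs1, which encodes nephrin of the slit diaphragm, and Ptpro, a receptor phosphatase of podocytes. Endothelial Vegfa was 9.17%, 8.95%, 7.28% and 7.92% of the podocyte level in the same library, whereas Nphs1 was at 0.211%, 0.638%, 0.184% and 0.147% and Ptpro at 0.276%, 0.698%, 0.190% and 0.184%. The Vegfa share was above both markers in all 4 libraries. Cdkn1c, Thsd7a and Synpo lay between 0.863% and 3.37%, also below Vegfa in every library. Podxl, a podocyte marker that endothelial cells also carry, was at 16.1% to 24.8%. The summed podocyte list stood at 964, 1354, 867 and 838 CPM in endothelial sums with 0 of 9 markers at 0. In mesangial sums Vegfa was 0.839% to 1.76% of the podocyte level, beside Nphs1 at 0.478% to 0.775%, Cdkn1c at 0.910% to 1.75% and Synpo at 6.28% to 9.01%.

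**Figure D2:**
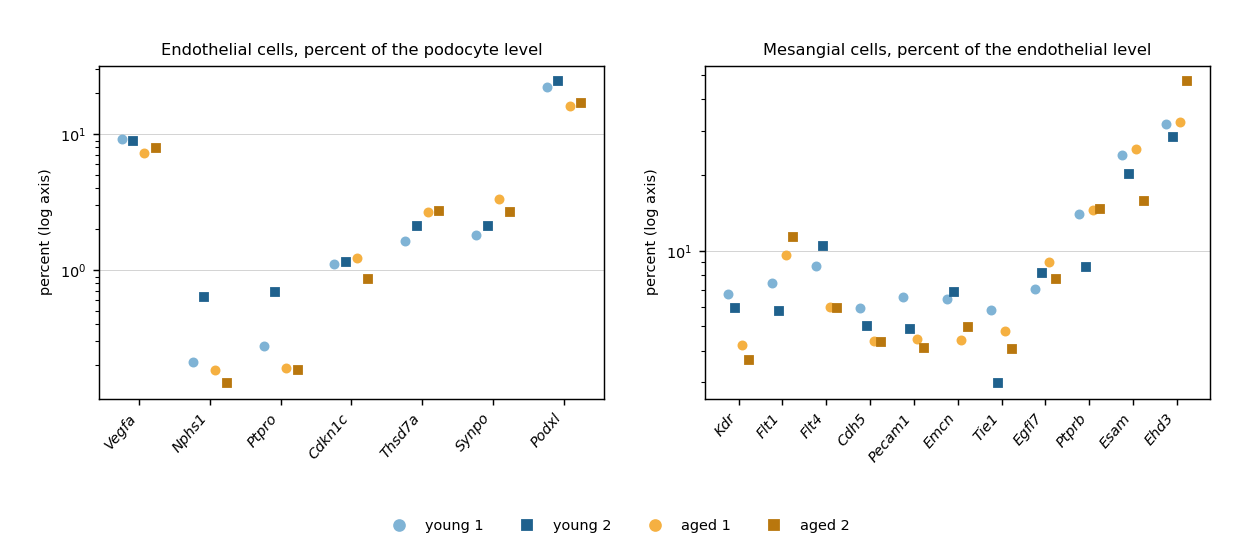
Level of genes in the receiving class as a percentage of the level in the source class of the same library (log axes), 1 point per library. Endothelial Vegfa lies at 7.28% to 9.17% of the podocyte level, above Nphs1 and Ptpro, and mesangial Kdr and Flt1 lie among endothelial markers such as Cdh5 and Egfl7.

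Where the UMIs of a ligand came from also depended on how many cells of a class were captured. Podocytes gave 89.7%, 55.6%, 78.1% and 73.6% of the Vegfa UMIs of all kept cells, and of the UMIs in classed cells alone 92.5%, 88.4%, 80.8% and 77.3%. Both aged libraries lay below both young ones in that second share. Of classed cells, podocytes were 1753 of 4711 and 575 of 2455 in young and 985 of 8763 and 655 of 6311 in aged libraries. Of kept cells, which include those without a class, podocytes made up 34.8% and 8.24% in young and 10.7% and 9.63% in aged libraries. Endothelial cells gave 97.5%, 97.0%, 98.1% and 98.2% of the Kdr UMIs in classed cells.

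**Figure D3:**
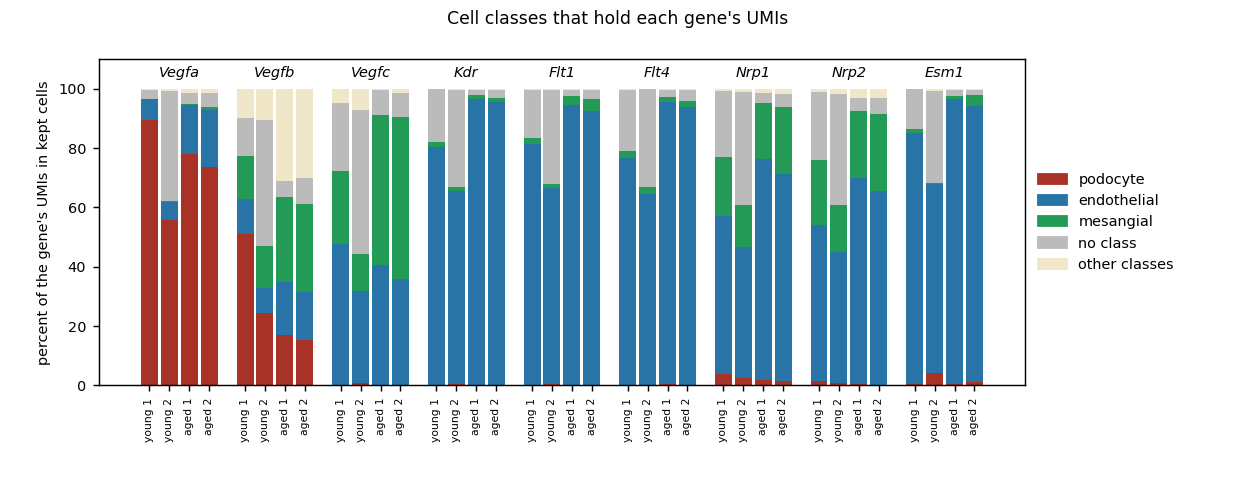
Share of each member's UMIs (percent) contributed by each cell class in every library, as stacked bars that start at 0. Podocytes supply most Vegfa UMIs in all 4 libraries and endothelial cells most Kdr, Flt1, Flt4 and Esm1 UMIs, and the unclassed share is largest in the second young library.

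The mesangial cell, the pericyte-like cell of the tuft, carried the co-receptors at endothelial levels but little of the receptors. Nrp1 stood at 2243, 2336, 1177 and 1185 CPM in mesangial cells and at 1911, 2223, 1429 and 1386 in endothelial cells. The 2 classes overlapped, and the log2 difference was -0.02 with a 95% interval of -0.22 to 0.17 (edgeR adjusted p = 0.846). Nrp2 stood at 125, 132, 159 and 163 against 96.9, 115, 148 and 155 (0.20, 95% interval 0.03 to 0.37, edgeR adjusted p = 0.0637). In podocytes Nrp1 was at 110.1, 151, 102 and 97.7, a log2 difference from endothelium of -3.99 ± 0.10 (SE, edgeR adjusted p = 3.69e-10), and in the smooth muscle and renin class at 512, 434, 425 and 571. Of the 9 members 7 differed between mesangial and endothelial cells, where 60.8% of genes did.

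Kdr was at 143, 148, 65.0 and 54.5 CPM in mesangial cells, Flt1 at 103, 85.2, 114 and 124, and Flt4 at 4.38, 5.74, 3.001 and 2.79. Their log2 differences from endothelium were -4.31, -3.53 and -3.82. Kdr in mesangial sums was 6.73%, 5.89%, 4.21% and 3.69% of the endothelial level, beside Cdh5 at 5.93%, 5.04%, 4.36% and 4.35% and Pecam1 at 6.54%, 4.86%, 4.46% and 4.09%. Flt1 was 7.46%, 5.78%, 9.62% and 11.4%, beside Egfl7, an endothelial secreted factor, at 7.05%, 8.19%, 9.01% and 7.74%. The endothelial list as a whole was at 1930, 1738, 1716 and 1961 CPM in mesangial sums with 0 of 10 markers at 0, and its part in the receptor values was not tested.

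Vegfc, the ligand of VEGFR3, was found in mesangial and endothelial cells and, from few UMIs, in cluster 17. Mesangial sums held it at 17.5, 13.1, 46.8 and 58.9 CPM (36, 16, 234 and 359 UMIs), with both aged libraries above both young ones. Endothelial sums held 10.9, 9.86, 11.7 and 14.5. Mesangial cells were higher by 1.63 ± 0.23 on the log2 scale (SE, edgeR adjusted p = 6.63e-05), and gave 24.8%, 12.7%, 50.7% and 54.6% of all Vegfc UMIs. A Vegfc UMI was found in 11.4%, 8.38%, 24.3% and 37.9% of mesangial cells and in 0% to 0.174% of podocytes, and after thinning to 1000 UMIs the mesangial shares were 3.14%, 0.538%, 4.82% and 7.02%. Cluster 17 held 6, 8, 0 and 5 Vegfc UMIs, at 33.1, 40.5, 0 and 10.3 CPM, above the mesangial values in young libraries, though the exact Poisson 95% intervals, which cover counting error only, overlapped (12.1 to 71.9 against 12.3 to 24.2 CPM in the first, 17.5 to 79.7 against 7.49 to 21.3 in the second). A count of 0 in the first aged library allows a level of up to 7.60 CPM. Macrophage sums held 1 Vegfc UMI over the 4 libraries.

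Endothelial cells were divided by marker lists, one of glomerular capillaries (Ehd3, Plat, Smad6, Sost and others) and one of arteriolar endothelium (Sox17, Gja5, Fbln5, Edn1 and others), with each cluster assigned to the highest list. A further list, of peritubular capillary and venous endothelium, was highest in no cluster. The capillary-list set includes cluster 22, where a lymphatic list not used for the division was at 1.0 against 0.571 for the capillary list. It also includes cluster 23, with Mki67 and Top2a among its leading genes. The arteriolar-list comparison was added after the data were seen. Vegfc stood at 45.3, 42.8, 56.3 and 71.7 CPM in arteriolar-list cells and at 1.21, 0.326, 0.311 and 0.912 in capillary-list cells (6, 1, 4 and 12 UMIs), a log2 difference of 6.43 ± 0.22 (SE, edgeR adjusted p = 6.73e-11). The 2 sets did not overlap. Of the 9 members 8 differed between the 2 lists, where 29.1% of 10533 genes did.

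Kdr, Nrp1 and Nrp2 were higher in capillary-list cells. Kdr was at 2514, 2991, 1789 and 1709 CPM in them and at 731, 815, 582 and 499 in arteriolar-list cells (log2 difference -1.74 ± 0.05, SE, edgeR adjusted p = 2.18e-11). Nrp1 was at 2178, 2535, 1580 and 1518 against 958, 1142, 835 and 833 (-1.0 ± 0.06), and Nrp2 at 112, 132, 168 and 176 against 41.7, 57.5, 72.5 and 64.7 (-1.30 ± 0.07). Of the receptors Flt1 differed least, with 1447, 1578, 1221 and 1115 in capillary-list cells and 1118, 1115, 1030 and 972 in arteriolar-list cells (-0.30 ± 0.06, edgeR adjusted p = 0.000826). Kdr separates the 2 sets of cells in every library, and Flt1 does so within each library but not across libraries. Flt4 was at 55.0, 60.3, 53.0 and 49.9 against 34.5, 37.2, 39.5 and 34.9 (-0.51 ± 0.09), and Vegfb did not pass the test (-0.39 ± 0.21, edgeR adjusted p = 0.182). Vegfa gave -0.22 ± 0.07 (edgeR adjusted p = 0.0238), a call that held in 3 of 8 alternatives and was lost after thinning, with members among the variable genes, and without either young library or the second aged one (adjusted p 0.00208 to 0.29).

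Esm1 was, beside Vegfc, the other member that was higher in arteriolar-list cells. It stood at 330, 272, 565 and 344 CPM in arteriolar-list cells and at 75.3, 35.9, 17.4 and 26.4 in capillary-list cells, a log2 difference of 3.56 ± 0.32 (SE, edgeR adjusted p = 9.38e-07). Its highest level was in cluster 5, led by Igfbp3, Slc45a4, Tgfb2 and Fbln5, at 1136, 1310, 1029 and 709. The other arteriolar-list cluster, cluster 6, led by Tspan8, Thbs2 and Calca, was at 12.0, 5.66, 38.5 and 5.55. Cluster 3, of the capillary list, came next at 155, 95.9, 77.0 and 99.8. Cluster 5 also had the higher Vegfc of the arteriolar-list clusters, at 127, 155, 90.4 and 133 against 13.0, 14.2, 17.6 and 15.4 in cluster 6.

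**Figure D4:**
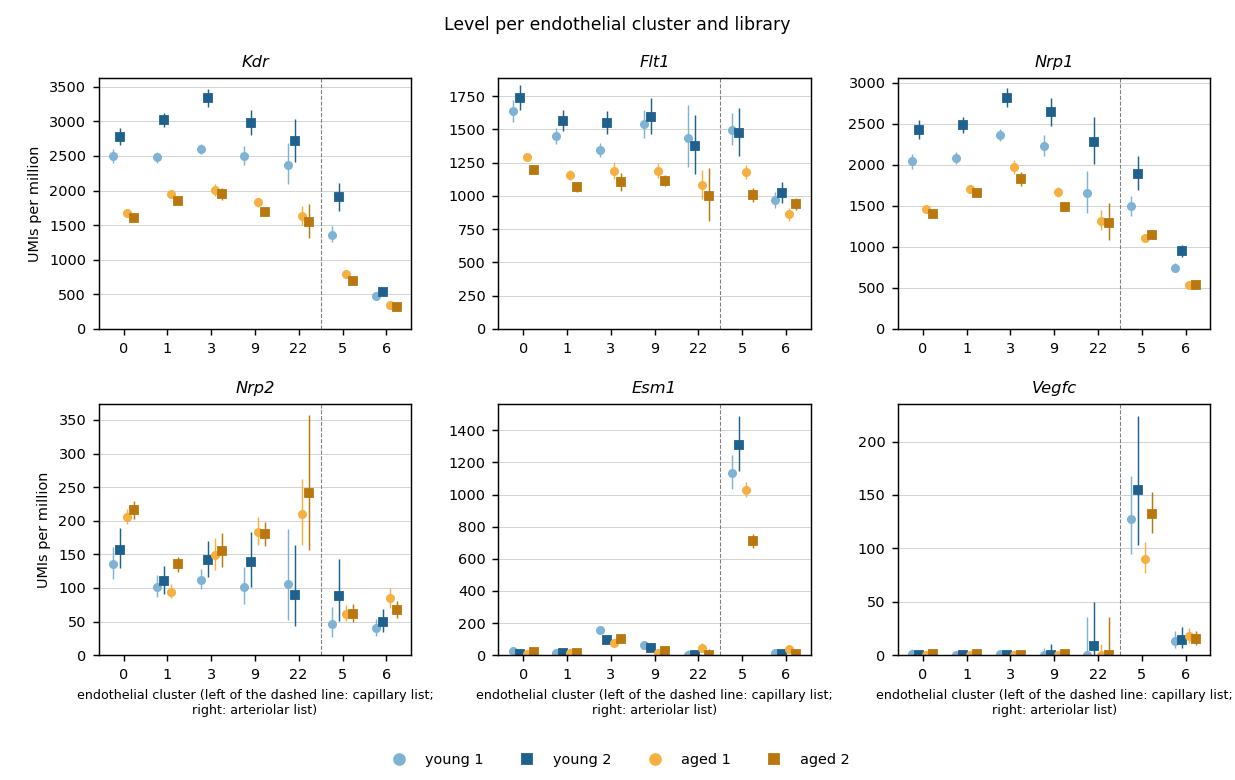
Level of Kdr, Flt1, Nrp1, Nrp2, Esm1 and Vegfc (CPM, linear axis) in the endothelial clusters, 1 point per library, young and aged libraries in different colours. Bars are exact Poisson 95% intervals, which cover counting error only. Esm1 and Vegfc peak in cluster 5, and Kdr lies lower in clusters 5 and 6 than in the capillary-list clusters 0, 1, 3 and 9.

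Between young and aged libraries the podocyte ligand did not differ beyond the spread between libraries. The Vegfa levels above gave a log2 difference of -0.04, aged against young, with a 95% interval of -0.32 to 0.24 (edgeR quasi-likelihood test, adjusted p = 0.932), and 1 aged library lay within the young range and the other just below it. Vegfb gave -0.07 (95% interval -0.39 to 0.26, edgeR adjusted p = 0.902), and podocyte Nrp1 gave -0.31 (-0.59 to -0.03, adjusted p = 0.261). Of the 7 members tested in podocytes 0 passed, where 5.51% of 10854 genes did. Nrp1 was the only 1 of the 7 with an unadjusted p under 0.05 in edgeR, and DESeq2 called 0 of the members.

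Endothelial Nrp2 rose with age. Its levels of 96.9 and 115 CPM in young libraries and 148 and 155 in aged ones did not overlap, and the log2 difference was 0.65 ± 0.14 (SE, 1.56-fold, edgeR adjusted p = 0.00757). It was the 1 of 9 members that passed, where 5.87% of 13146 genes did. The call was lost when either young library was left out, where 0 genes passed by edgeR and 1957 and 1617 had an unadjusted p under 0.05, and without a filter on low counts. The log2 difference lay between 0.58 and 0.72 over the 13 alternatives. Kdr and Nrp1 were lower in both aged libraries than in both young ones, yet did not pass: Kdr gave -0.49 ± 0.17 (SE, edgeR adjusted p = 0.124) and Nrp1 -0.43 ± 0.17 (adjusted p = 0.179). DESeq2 called both, at -0.47 for Kdr and -0.41 for Nrp1. Flt1 gave -0.20 (95% interval -0.53 to 0.12) and Flt4 0.01 (-0.26 to 0.28).

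**Figure D5:**
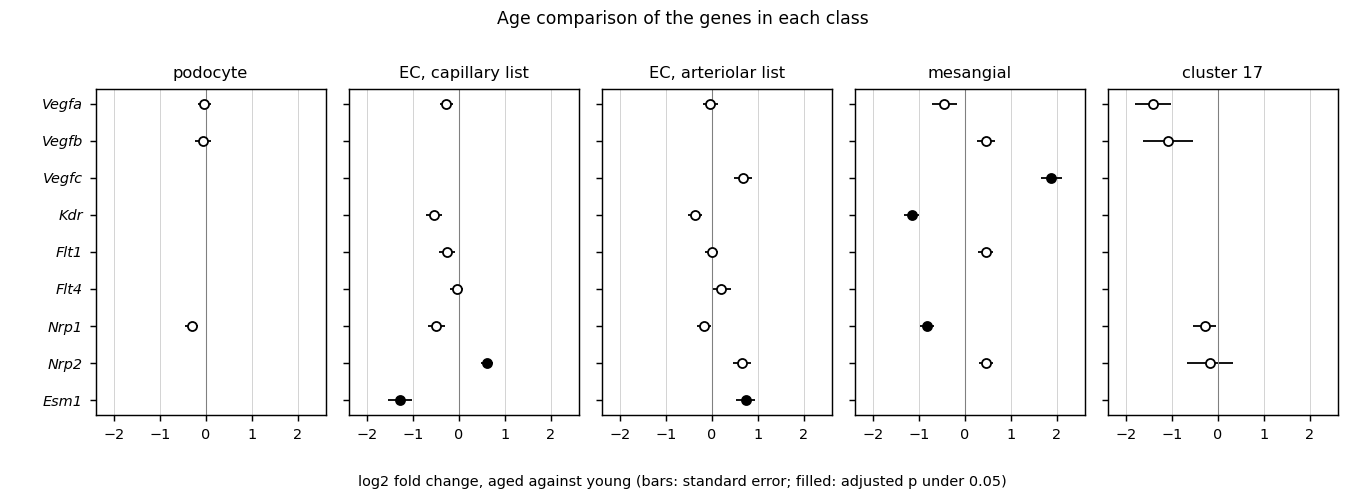
Log2 difference, aged against young, from the edgeR quasi-likelihood fits on class sums, with the standard error as bars. Members with a mean of at least 10 CPM in a class are shown, and filled points passed an adjusted p of 0.05. EC stands for endothelial cells. Vegfa in podocytes lies at -0.04, Nrp2 lies above 0 in the endothelial sets, and mesangial Kdr and Nrp1 lie below 0 while Vegfc lies above.

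The mix of endothelial cells differed between the age groups beside these values. Cluster 0, with Sele, Il6 and Selp among its leading genes, made up 12.9% and 16% of endothelial cells in young libraries and 34.3% and 27.2% in aged ones, and cluster 3 made up 35.9% and 26.3% against 9.57% and 8.97%. The list of activated endothelium summed to 500.2 and 550 CPM in young and 943 and 1206 in aged endothelial sums, with 0 of 5 markers at 0. The mesangial list in the same sums stood at 46.9 and 71.6 in young and 111 and 122 in aged libraries, with 0 of 9 at 0. Their part in the differences was not tested. Within single clusters, where the mix is held closer, Nrp2 gave a positive difference in 7 of 7 clusters tested and passed in 3, at 0.65 in cluster 0, 0.91 in cluster 6 and 0.73 in cluster 9. Kdr gave a negative difference in 7 of 7 and passed in 2, cluster 0 at -0.57 (edgeR adjusted p = 0.049) and cluster 5 at -1.0 (edgeR adjusted p = 0.00958). In cluster 5 Kdr stood at 1365 and 1902 CPM in young and 793 and 694 in aged libraries. Nrp1 and Flt1 were each negative in 7 of 7 and passed in 0 by edgeR, with an unadjusted p under 0.05 in 5 clusters for Nrp1 and 2 for Flt1. Endothelial Vegfa gave -0.22 over the class (95% interval -0.49 to 0.05, edgeR adjusted p = 0.414). It was negative in 6 of 6 clusters tested and passed in 1, cluster 3, at -0.67 ± 0.19 (edgeR adjusted p = 0.0285). Of all genes 4.18% passed in cluster 0, 2.70% in cluster 1, 2.49% in cluster 3, 1.16% in cluster 5, 3.50% in cluster 6, 2.29% in cluster 9 and 0.713% in cluster 22. The clusters share their libraries, so they are not independent repeats.

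In capillary-list cells 2 of 8 members tested passed, where 5.46% of 12566 genes did. Esm1 fell by 1.29 ± 0.26 on the log2 scale (SE, 2.44-fold, edgeR adjusted p = 0.00424), from 75.3 and 35.9 to 17.4 and 26.4 CPM, and Nrp2 rose by 0.61 ± 0.14 (edgeR adjusted p = 0.0153). The groups did not overlap for either, and Nrp2 lost its call when either aged library was left out or with no filter on low counts. The Esm1 difference rested on the first young library, since without it the value was -0.54 and did not pass, and it was not called by DESeq2 or with no filter on low counts. Cluster 3, which held the most Esm1 of the capillary-list clusters, made up 45.1% and 34.3% of capillary-list cells in young and 12.7% and 11.5% in aged libraries. Within cluster 3 alone Esm1 gave -0.50 (95% interval -0.90 to -0.10, edgeR adjusted p = 0.237) and within cluster 9 it gave -1.41 (edgeR adjusted p = 0.032).

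In arteriolar-list cells Esm1 went the other way and rose by 0.73 ± 0.20 (SE, edgeR adjusted p = 0.035), from 330 and 272 to 565 and 344, the 1 member of 9 that passed where 4.73% of 9980 genes did. Cluster 5, where it was highest, made up 37.4% and 22.2% of arteriolar-list cells in young and 58.3% and 57.2% in aged libraries. Within cluster 5 the difference was -0.37 ± 0.21 (SE, edgeR adjusted p = 0.512), with 1136 and 1310 in young and 1029 and 709 in aged libraries. Within cluster 6, at far lower levels, the difference was 1.34 ± 0.6 (SE, edgeR adjusted p = 0.272). It rested on the first aged library, since the second aged library lay below both young ones. The call was also lost without the first aged library, without doublet removal at 0.35, after thinning at 0.49, and with the members among the variable genes at 0.31. The age effect on Esm1 differed between the 2 lists by 1.99 ± 0.21 (SE, edgeR interaction test, adjusted p = 1.9e-09), and that on Nrp1 by 0.31 ± 0.07 (adjusted p = 0.00828), the 2 of 9 members that passed where 2.70% of genes did. The Esm1 difference passed in all 8 alternatives, from 1.29 to 2.67, and that of Nrp1 in 4 of 8, not when the first young or either aged library was left out or cells were thinned.

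Mesangial cells held the most members that changed with age, 3 of 9, where 7.42% of 10984 genes did. Vegfc rose by 1.87 ± 0.23 on the log2 scale (SE, 3.64-fold, edgeR adjusted p = 0.000277). Kdr fell by 1.16 ± 0.16 (edgeR adjusted p = 0.000858) and Nrp1 fell by 0.83 ± 0.16 (edgeR adjusted p = 0.00737). The levels of all 3, given above, did not overlap between groups. Kdr and Nrp1 lost their calls when either young library was left out, Kdr also with cells named one by one, and Vegfc lost its call with cells thinned to 1000 UMIs. Marker lists of other classes moved beside these values in the mesangial sums. The parietal epithelial list stood at 386, 367, 2063 and 941 CPM, with 2 or 3 of 8 markers at 0 (Pax8 and Krt19 in every library). The activated endothelium list stood at 581, 582, 1223 and 1325. Their part in the mesangial differences was not tested. Nrp2 gave 0.45 (95% interval 0.16 to 0.74, edgeR adjusted p = 0.0846), Vegfb 0.46 (0.07 to 0.85) and Flt1 0.45 (0.13 to 0.76, adjusted p = 0.111).

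Different clusters held the mesangial class in the 2 groups. Cluster 13 held 266 and 175 of the mesangial cells in young and 33 and 14 in aged libraries, and cluster 10 held 23 and 16 in young and 655 and 529 in aged. With the clusters of mixed markers kept in the class, Flt1 turned to -1.44 (edgeR adjusted p = 0.00264), Kdr went to -3.01 and Nrp1 was no longer called. That setting took the mesangial cells of the second young library from 191 to 1747. In young 1, aged 1 and aged 2 they went from 289 to 435, 688 to 730 and 543 to 575. Beside the Kdr fall stand single endothelial markers in these sums, with Kdr at 6.73% and 5.89% of its endothelial level in young and 4.21% and 3.69% in aged libraries, and Pecam1 at 6.54% and 4.86% against 4.46% and 4.09%. Egfl7 did not go the same way, at 7.05% and 8.19% against 9.01% and 7.74%. The endothelial list as a whole overlapped between the groups, at 17.6% and 15.8% of its own level in young and 15.6% and 17.9% in aged libraries. These sums were made after cells with markers of another class had been left out. That step kept 266 of 378 and 175 of 245 cells of cluster 13 in young libraries. In aged libraries it kept 655 of 676 and 529 of 547 cells of cluster 10. It limits the endothelial values in these sums, and its part in them was not tested.

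The age effect differed between mesangial and endothelial cells for 3 of 9 members, where 3.18% of 11969 genes did: Vegfc by 1.46 ± 0.27 (SE, edgeR interaction test, adjusted p = 0.00249), Kdr by -0.65 ± 0.17 (adjusted p = 0.0289) and Flt1 by 0.68 ± 0.17 (adjusted p = 0.0204). None of the 3 passed when either young library was left out or with cells thinned to 1000 UMIs, and Kdr did not pass without the second aged library at -0.51. With mixed clusters kept the Flt1 difference reversed to -1.24 (edgeR adjusted p = 0.000863) and that of Kdr was -2.54. Between podocytes and endothelial cells the age effect of 0 of 9 members differed by edgeR, where 6.18% of genes did, and 1 of the 9, Flt4, had an unadjusted p under 0.05. Vegfa gave 0.18 (95% interval -0.03 to 0.39, edgeR adjusted p = 0.405).

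In cluster 17, Vegfa stood at 110.2, 223, 50.7 and 71.8 CPM from 20, 44, 20 and 35 UMIs, and gave -1.41 (95% interval -2.18 to -0.65, edgeR adjusted p = 0.321). Of 4 members tested there 0 passed by edgeR, Vegfa alone with an unadjusted p under 0.05, and DESeq2 called 0. Of 5022 genes 0 passed (0.00%), with 464 at an unadjusted p under 0.05 and 16 called by DESeq2. The cluster holds 37 to 71 cells per library, and in simulated counts of this size 2 of 85 genes changed 2-fold were recovered, against 95 of 100 in podocytes, 98 of 100 in endothelial cells and 52 of 100 in mesangial cells. A list of 10 dissociation-induced genes, such as Fos and Jun, summed to 13930 and 16150 CPM in young and 5289 and 9178 in aged cluster 17. In the same order it gave 18480, 18660, 19790 and 22410 in endothelial sums. Mesangial sums gave 28480, 32280, 22980 and 28080, and podocyte sums 35200, 36180, 32930 and 38250. Its part in the differences was not tested.

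Around the members, a list of 73 genes of the pathway was read in the same fits, with its ligands, partners, signal relay, VEGF-responsive genes and regulators of Vegfa. The list was chosen with earlier results of these data known. Its shares of called genes, here and in the classes below, are therefore descriptions and not a test of the pathway. In podocytes 53 were tested, 4 rose and 2 fell, 11.3% against 5.51% of all genes, with a median log2 difference of 0.04 against 0.00 for all genes. Rcan1, an inhibitor of calcineurin that VEGF induces in endothelium, went from 58.4 and 70.9 to 311 and 252 CPM (2.19 ± 0.14, SE, edgeR adjusted p = 1.65e-09), and Adamts1, a secreted metalloprotease, rose by 1.21 ± 0.17. Shb, an adaptor of VEGFR2, rose by 1.09 ± 0.19 and F3, tissue factor, by 0.62 ± 0.13, while Efnb2 fell by 1.29 ± 0.29 and Dusp5 fell by 0.54 ± 0.15. Rcan1 was called in 13 of 13 alternatives. Dusp5 was called in 6 of 13, and not without the first young or either aged library; F3 was not called without either aged library, nor Efnb2 without the second aged one or by DESeq2. With mixed clusters kept only Rcan1 of these 6 was called.

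In endothelial cells 61 pathway genes were tested, 5 rose and 4 fell, 14.8% against 5.87%. Plvap, the diaphragm protein of fenestrae, rose by 1.38 ± 0.22 (SE, edgeR adjusted p = 0.000675), Hlx, a VEGF-induced transcription factor, by 0.81 ± 0.15, Angpt1 by 1.11 ± 0.22 and Apln by 1.62 ± 0.41. Egr3, an immediate target of VEGF signalling, fell by 0.86 ± 0.15 (edgeR adjusted p = 0.00142) from 78.0 and 96.4 to 39.0 and 48.8 CPM, and Efnb2, an arterial ligand that aids VEGFR2 uptake, fell by 0.59 ± 0.16. Thus of the 19 responsive genes tested 3 rose and 1 fell, and the list did not go 1 way. Tcf21 also fell, from 2.67 and 7.08 to 1.115 and 0.737 CPM, and Wt1 from 3.15 and 6.575 to 1.49 and 1.23. Both are podocyte genes, and Wt1 is itself in the podocyte list. That list stood at 964 and 1354 in young and 867 and 838 in aged endothelial sums. The part of podocyte RNA in the values of Tcf21 and Wt1 was not tested. These endothelial calls were lost when either young library was left out, as for Nrp2.

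In mesangial cells 56 were tested, 7 rose and 3 fell, 17.9% against 7.42%. Among ligands, Vegfd, a second ligand of VEGFR3, rose by 1.03 ± 0.18 (SE, edgeR adjusted p = 0.00313) from 44.3 and 58.2 to 94.0 and 95.4 CPM, and Angpt2 rose by 0.78 ± 0.19. Pgf, a ligand of VEGFR1, fell by 1.28 ± 0.25 (edgeR adjusted p = 0.0068) from 60.3 and 35.2 to 20.0 and 17.2. Hif1a, the hypoxia-inducible factor, rose by 1.02 ± 0.20 and Nid2 by 1.17 ± 0.23. Ppargc1a fell by 3.1 ± 0.62, at 0.328 to 7.37 CPM, and Nr4a1 fell by 0.56 ± 0.15. Vegfd and Pgf lost their calls without the first young library and after thinning, and Hif1a and Angpt2 without either young library. Angpt2 was called in 8 of 13 alternatives, Nid2 in 10 of 13, Ppargc1a in 9 of 12 and Nr4a1 in 7 of 13. The Vegfd and Vegfc values thus moved in the same direction in this class, and Pgf in the other. In capillary-list cells 59 were tested, 4 rose and 4 fell (13.6% against 5.46%). Arteriolar-list cells lay closer to the share over all genes, with 55 tested, 2 higher and 1 lower (5.45% against 4.73%). Cluster 17 had 31 tested and 0 called, where 0.00% of all genes were.

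As a description over 16 sums (4 classes in 4 libraries, which share their libraries), the genes whose levels ran most like a member's were read by Pearson's r. Vegfa ran most like Cldn5 (r = 0.989), a tight-junction gene that in these data was highest in podocytes, at 984% to 1603% of its endothelial level, and like Cd55 and Ripor1. Kdr ran most like Gimap6 (0.991), Emcn and Cd300lg, and Flt1 most like Egfl7 (0.995), Smurf2 and 4931406P16Rik. Nrp1, with its endothelial and mesangial presence, ran most like Epas1 (0.984). Nrp2 ran most like Jam3 (0.988) and Icam1 (0.986), a gene of the activated endothelium list. Flt4 ran most like Meg3 (0.992) and Inpp5d, Esm1 most like Ces2e (0.954), Vegfb most like Man2a2 (0.952) and Vegfc most like Kansl2 (0.919).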

How the data were processed

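The authors deposited UMI count matrices of single cells, made with Cell Ranger 6.0.1 on GRCm38 per the submitters' processing notes; the order of filters before deposit is not given in the sources used here. Values are raw counts per gene and barcode. Cells with at least 500 genes and at most 20% mitochondrial UMIs were kept. Scrublet's automatic threshold marked 0.449% of cells, so the highest-scoring cells were removed at an assumed 0.8% per 1000 cells (6.28%). Cells were clustered with scanpy 1.11.5 (2000 variable genes without the members, 30 components, Leiden resolution 1) into 28 clusters, of which 21 were named from marker lists. Counts were summed per class and library and tested with edgeR 4.0.16 (quasi-likelihood, TMM, low counts filtered, Benjamini-Hochberg over all genes, threshold 0.05), with 2 libraries a group; DESeq2 1.42.0 was an alternative. Class comparisons and interactions had the library as a block. The code was tested on simulated data. Shared replicate numbers were not taken to pair libraries (correlation of same-numbered deviations 0.0353 to 0.0833, 0.393 in cluster 17). With 2 libraries a group this correlation cannot show that the libraries were unpaired. Members and lists were chosen with earlier results of these data known, and the minimum of 10 CPM for a fold change in the sensitivity checks after values were seen; 95% intervals are normal intervals from the SE. Named genes were all members, up to 4 pathway genes per direction by adjusted p in podocytes, endothelial and mesangial cells, and genes from the 3 most alike in r. Pathway genes of the capillary-list and arteriolar-list sets were counted and not named. Endothelial clusters were assigned to the capillary, arteriolar or venous marker list with the highest level.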

Additional observations from a re-analysis of the deposited data

Results flagged for a closer look

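The age effect on Esm1 differed between arteriolar-list and capillary-list endothelial cells by 1.99 on the log2 scale, the aged libraries being higher in the first set and lower in the second. Within cluster 5, the arteriolar-list cluster where Esm1 was highest, the value was -0.37, and within cluster 6 it was 1.34. Neither passed. The cluster 6 value rested on the first aged library, since the second aged library lay below both young ones there. Of 6 endothelial clusters tested for Esm1, 5 gave a negative value and 1 a positive one. The age effect on Nrp1 differed by 0.31 between the same sets, at -0.18 in arteriolar-list sums and -0.49 in capillary-list sums. It passed in 4 of 8 alternatives. Within arteriolar-list clusters 5 and 6 Nrp1 gave -0.46 and -0.52. These lay within the range of capillary-list clusters 0, 1, 3, 9 and 22, at -0.53, -0.35, -0.37, -0.53 and -0.56. The part of the cluster mix in the Nrp1 difference was not tested. Between mesangial and endothelial cells the age effect differed for Vegfc (1.46, a larger rise in mesangial cells), Flt1 (0.68, with opposite signs) and Kdr (-0.65, a larger drop in mesangial cells). With mixed clusters kept the Flt1 difference was -1.24 and mesangial Flt1 itself -1.44, so the signs were then no longer opposite. The 3 mesangial differences did not pass without either young library or with cells thinned to 1000 UMIs. All 5 came from edgeR interaction tests with the library as a block.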

How the results depend on the processing

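Of 769 values recomputed under the alternatives, 661 kept their direction and their side of the threshold, 40 lost their call, 33 gained one and 35 changed sign, besides those within single clusters. The cause of the changes below was not tested. Of the 5 sets simulated, cluster 17, with 37 to 71 cells per library, had the lowest recovery: 2 of 85 2-fold changes, against 52 of 100 in mesangial cells and 95 of 100 in podocytes. Leaving out a library leaves 1 library in an arm, whose spread is assumed to be like that of the other arm. Naming cells one by one was not run for the capillary-list and arteriolar-list sets. Members called in capillary-list against arteriolar-list cells, 8, were 7 after thinning and 6 with members among the variable genes.

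Counts of members called with age moved as follows. With no filter on low counts they were 1 in podocytes, 0 in endothelial cells, 0 in capillary-list cells and 3 in arteriolar-list cells. With DESeq2 the endothelial count was 3, and with cells thinned to 1000 UMIs it was 3. With mixed clusters kept the mesangial count was 7 and that of cluster 17 was 1. In single endothelial clusters it was 2 in cluster 0, 0 in cluster 1, 2 in cluster 9 and 0 in cluster 22. With a replicate block the counts were 2 in endothelial, 5 in mesangial, 4 in capillary-list and 3 in arteriolar-list cells, 0 in podocytes and 0 in cluster 17; the replicate block raised the count of all genes called from 598 to 900 in podocytes, 772 to 1223 in endothelial cells, 815 to 1711 in mesangial cells, 686 to 1328 in capillary-list cells and 0 to 48 in cluster 17. Replicate numbers were not taken to pair libraries: same-numbered libraries deviated together with r of 0.0353 to 0.0833 across genes, and 0.393 in cluster 17. The interaction of mesangial with endothelial cells gave 5 members with mixed clusters kept and 0 after thinning, and that of the 2 endothelial lists gave 1 after thinning. Leaving out 1 library gave 0 to 2 members in podocytes, 0 to 1 in endothelial, 1 to 4 in mesangial, 1 to 3 in capillary-list and 1 to 2 in arteriolar-list cells, 0 to 1 in cluster 17, and 0 to 4 and 1 to 2 for the 2 interactions.

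With DESeq2 the count of all genes called was 248 in podocytes, 483 in endothelial cells, 457 in mesangial cells, 399 in capillary-list cells, 201 in arteriolar-list cells and 16 in cluster 17, against 472 in arteriolar-list cells by edgeR. With mixed clusters kept it was 88 in podocytes and 20 in cluster 17. After thinning it was 155 in podocytes, 485 in endothelial, 194 in mesangial, 404 in capillary-list and 218 in arteriolar-list cells, and 5 in cluster 17. With no filter on low counts it was 0 in endothelial, 1305 in mesangial, 230 in capillary-list cells and 189 in cluster 17, and with cells named one by one 495 in mesangial cells and 111 in cluster 17. Leaving out 1 library gave 298 to 985 in podocytes, 0 to 751 in endothelial (0 without either young library), 66 to 1776 in mesangial (66 and 94 without young 1 and 2) and 312 to 542 in arteriolar-list cells, and 0 to 231 in cluster 17. For age by class, the count of podocytes against endothelial cells went from 753 to 0 with mixed clusters kept, 196 after thinning, and 201 and 151 without young 1 and 2. That of mesangial against endothelial cells went from 381 to 679 with mixed clusters kept, 86 after thinning, 34 and 23 without young 1 and 2, and 742 and 729 without aged 1 and 2. That of the 2 endothelial lists went from 284 to 59 after thinning, 144 with members among the variable genes, and 185, 158 and 166 without young 1, aged 1 and aged 2. Thinning lowered the class count of mesangial against endothelial cells from 7279 to 3847 and that of the 2 endothelial lists from 3066 to 1842.

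Signs changed for podocyte Vegfa with mixed clusters kept (0.08) and over left-out libraries (-0.13 to 0.05), and for podocyte Vegfb after thinning (0.03) and over left-out libraries (-0.18 to 0.05). Endothelial Vegfc was -0.20 within cluster 5. Endothelial Flt4 was -0.01 without doublet removal, -0.19, -0.02 and -0.03 within clusters 3, 5 and 6, and -0.04 to 0.06 over left-out libraries. Endothelial Esm1 was -0.12, -0.17, -0.50, -0.37 and -1.41 within clusters 0, 1, 3, 5 and 9, and -0.23 to 0.46 over left-out libraries. Mesangial Flt1 was -1.44 with mixed clusters kept. In cluster 17, Nrp2 was 0.12 with cells named one by one, 0.27 with mixed clusters kept and -0.65 to 0.91 over left-out libraries. In capillary-list cells Flt4 was 0.00 with members among the variable genes. In arteriolar-list cells Vegfa was 0.03 after thinning and -0.14 to 0.06 over left-out libraries, Flt1 was 0.00 with DESeq2, 0.03 with no filter, 0.01 with members among the variable genes and -0.05 to 0.04 over left-out libraries, and Flt4 was -0.05 with members among the variable genes.

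For class differences, mesangial against endothelial Nrp1 was -0.12 to 0.04 over left-out libraries. For age by class, Nrp1 of podocytes against endothelial cells was -0.42 with mixed clusters kept and -0.03 to 0.24 over left-out libraries. Mesangial against endothelial Vegfa was -0.58 to 0.14 over left-out libraries, Flt1 was -1.24 and Nrp2 0.07 with mixed clusters kept. Between the 2 endothelial lists, Kdr was -0.04 after thinning and -0.05 with members among the variable genes, Flt4 was -0.07 with members among the variable genes, and Nrp2 was -0.10 to 0.16 over left-out libraries.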
